A study of Homo sapiens with 8 samples.

Results

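Inflammasomes are protein platforms that macrophages build when a cytosolic sensor meets microbial or danger signals. The 10 genes described here encode their machinery, from sensor to membrane rupture: the sensors NLRP3, NLRP1, NLRC4 and MEFV, the adaptor PYCARD, the caspases CASP1 and CASP4, the pore protein GSDMD, the rupture protein NINJ1 and the ATP receptor P2RX7. They were chosen by name for their role, with earlier results of these data known. All 10 were among the 30233 genes of the deposited expression table. Their levels were compared between 2 groups of 4 libraries of THP-1 macrophages. THP-1 cells, labelled wild type, come from a human monocytic leukaemia and were made macrophage-like with the phorbol ester PMA at 100 ng/mL for 24 h, followed by 24 h without PMA. The first group received LPS, a bacterial outer-membrane lipid, at 100 ng/mL together with 3-HPA (3-hydroxypropionic acid, as the series title has it) at 5 mM, and the second received LPS at 100 ng/mL alone. Both groups therefore carry LPS and PMA differentiation, and no library without LPS was compared here. The labels' treatment protocol has 3-HPA given at the same time as LPS, while the series' design text calls it a pretreatment. How long LPS was left on is not stated in either.

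In the canonical route, a sensor recruits PYCARD, which gathers pro-caspase-1 into a filament where it activates itself. Active caspase-1 matures interleukin-1β and interleukin-18 and cleaves gasdermin D, whose released fragment opens pores in the plasma membrane, and NINJ1 then breaks that membrane. In the non-canonical route, caspase-4 binds cytosolic LPS itself and cleaves gasdermin D. Extracellular ATP acting on P2RX7 lets potassium leave the cell, a trigger of NLRP3. LPS induces the genes for NLRP3 and pro-interleukin-1β, a step known as priming.

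Depth, recovered from the steps in the FPKM values (fragments per kilobase of gene, scaled to the library total), ran from 35647756 to 41859879 reads per library, and 1 read in a gene of 2 kb was worth at most 0.014 FPKM. Of 10 macrophage markers, 9 passed the filter on low values, among them CD14, CSF1R and SPI1, whereas CD68 held 2 to 11 reads per library. Summed, the macrophage markers reached 1923 to 1987 FPKM with LPS + 3-HPA and 1554 to 1600 FPKM with LPS, and 7 of the 9 were higher with 3-HPA, where 15.7% of all genes tested were. FCGR1A was lower (mean 20.0 FPKM with LPS + 3-HPA, 22.9 FPKM with LPS), where 28.0% of all genes tested were. LYZ was called in neither direction. Of 12 markers of other cell types, 6 were in the table, with a sum of 4.14 to 4.61 FPKM with LPS + 3-HPA and 2.43 to 5.99 FPKM with LPS. Of these only the collagen gene COL1A1 passed the filter, and it rose (3.84 ± 0.180 FPKM with LPS + 3-HPA, 2.08 ± 0.147 FPKM with LPS, SD, n = 4 each). The part of these shifts in the results was not tested. Nothing in the labels says that replicates were separate cultures, so the spread that p-values rest on here may be technical.

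CASP1 lies on GRCh38 chromosome 11 within a row of related genes that reads CASP4, CASP5, CASP1, CARD16. CARD16 encodes a CARD-only decoy of caspase-1 (CARD is the domain through which caspase-1 is recruited), and its similarity to CASP1 bears on how reads can be told apart. The same coding stretch of 60 bases is shown for CASP1 (chr11:105034362-105034421), CARD16 (chr11:105044546-105044605) and CASP4 (chr11:104954889-104954948), all on the minus strand and each within 1 exon of GENCODE 29, at coding bases 61 to 120. Capitals mark bases that differ from CASP1.
CASP1: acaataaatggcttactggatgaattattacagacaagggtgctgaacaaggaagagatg
CARD16: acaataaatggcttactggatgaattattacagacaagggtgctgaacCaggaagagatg
CASP4: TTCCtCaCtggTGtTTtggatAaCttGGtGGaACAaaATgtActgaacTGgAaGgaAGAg
CARD16 differed from CASP1 at 1 of the 60 bases and CASP4 at 29. Over whole transcripts, 52 of 4481 distinct windows of 100 bases in CASP1 (1.16%) were also found in CARD16, and 0 windows of CASP4 were found in another gene's transcripts. Read length is not given by the sources at hand.

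The stretch of 250 bases before the start site is shown for 4 genes, taken from RefSeq (GRCh38.p14). They were picked on their results: CASP5 fell while its neighbour CASP4 did not pass the test, P2RX7 fell and NINJ1 rose. Windows for CASP1 and CARD16, which also fell, were not at hand. The windows are CASP5 at chr11:105023169-105023418, CASP4 at chr11:104968575-104968824 and NINJ1 at chr9:93134252-93134501 on the minus strand, and P2RX7 at chr12:121132626-121132875 on the plus strand. Capitals mark a match on either strand to an interferon-stimulated response element (ISRE, GAAA, any 2 bases, GAAA), a STAT-binding GAS element (TTCNNNGAA), an NF-κB motif (GGGA, any base, TT, any base, CC) or an AP-1 motif (TGANTCA).
CASP5: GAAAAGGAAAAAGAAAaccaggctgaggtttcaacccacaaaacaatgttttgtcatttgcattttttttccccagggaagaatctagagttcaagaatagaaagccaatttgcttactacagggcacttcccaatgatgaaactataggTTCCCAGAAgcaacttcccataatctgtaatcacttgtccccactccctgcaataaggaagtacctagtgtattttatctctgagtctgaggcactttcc
CASP4: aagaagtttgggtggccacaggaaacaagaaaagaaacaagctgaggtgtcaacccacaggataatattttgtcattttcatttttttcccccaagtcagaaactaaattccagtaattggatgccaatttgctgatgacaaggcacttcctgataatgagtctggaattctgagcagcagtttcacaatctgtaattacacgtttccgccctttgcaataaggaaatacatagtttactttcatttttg
P2RX7: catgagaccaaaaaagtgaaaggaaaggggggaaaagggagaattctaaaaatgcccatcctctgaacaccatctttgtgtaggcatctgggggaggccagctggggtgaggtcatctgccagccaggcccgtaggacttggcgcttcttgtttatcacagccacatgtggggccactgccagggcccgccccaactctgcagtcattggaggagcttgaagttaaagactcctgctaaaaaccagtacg
NINJ1: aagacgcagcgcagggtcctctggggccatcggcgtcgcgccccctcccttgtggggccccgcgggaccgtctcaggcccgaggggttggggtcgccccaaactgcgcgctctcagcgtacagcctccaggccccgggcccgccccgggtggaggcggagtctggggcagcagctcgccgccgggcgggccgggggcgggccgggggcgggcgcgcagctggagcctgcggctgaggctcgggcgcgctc
CASP5 held 2 overlapping ISRE matches and 1 GAS match. RefSeq windows were at hand for 7 of the 10 machinery genes (NLRP3, NLRC4, MEFV, PYCARD, CASP4, NINJ1 and P2RX7), and 0 of the 7 held a match to any of the 4 motifs. Among all 35116 windows, 3.02% held an ISRE match, 6.57% a GAS match, 1.26% an NF-κB match and 6.57% an AP-1 match. A match is a string of letters and not a measured site, and its part in any change was not tested.

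Of the 10 machinery genes, 8 passed the filter of 0.5 FPKM in at least 4 libraries and were tested. With 3-HPA, CASP1, P2RX7 and PYCARD fell, MEFV and NINJ1 rose, and NLRP3, CASP4 and GSDMD did not pass. That is 5 of 8 at an adjusted p under 0.05, where 43.7% of the 12499 genes tested passed. The share called among all genes is thus high, and the count of 5 stands out little from it. Over all genes, 15.7% were higher and 28.0% lower. The groups did not overlap in the same 5 genes, against 42.2% of genes tested. The median log2 fold change of the 8 genes was -0.05, the same as the -0.05 over all genes tested. Fold changes are on the scale log2(FPKM + 1), LPS + 3-HPA minus LPS, which understates the change of low genes. In bulk RNA, fewer cells expressing a gene and less RNA per cell cannot be told apart.

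**Figure D1:**
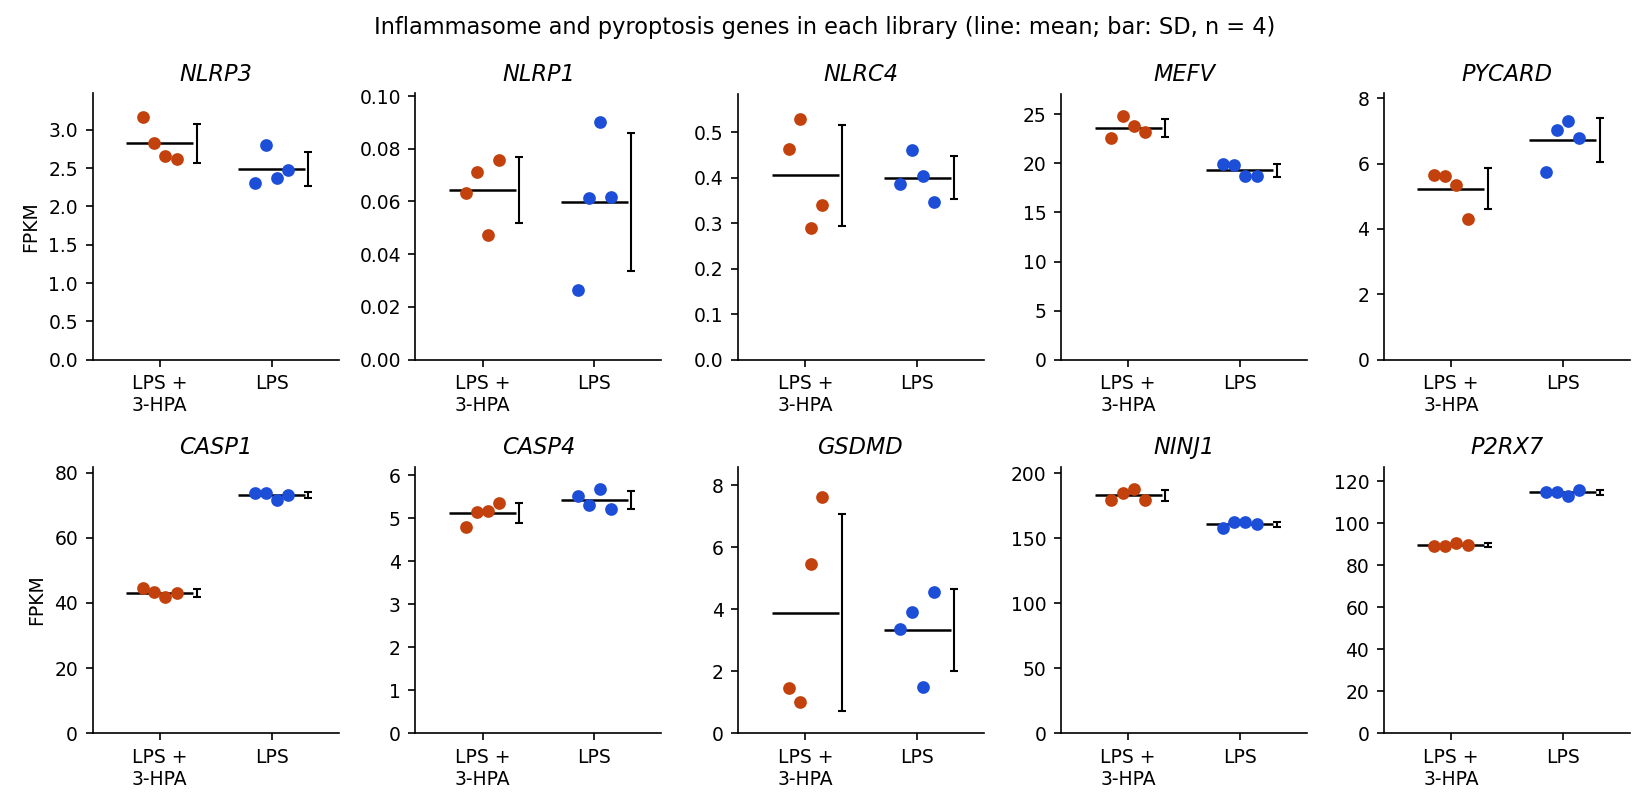
FPKM (vertical axis, from 0) of the 10 genes in each of the 4 LPS + 3-HPA libraries (orange) and the 4 LPS libraries (blue), with the mean as a line and the SD as a bar. CASP1, P2RX7, PYCARD, MEFV and NINJ1 separate the groups, while GSDMD spreads from 1.01 to 7.60 FPKM within the LPS + 3-HPA libraries alone.

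Of the 4 sensor genes, MEFV and NLRP3 were tested and only MEFV passed. It was also the most abundant of the 4. MEFV (ENSG00000103313, chromosome 16 from 3242028 to 3256627), which encodes pyrin, the sensor protein that is mutated in familial Mediterranean fever, had 22.6, 24.8, 23.8 and 23.2 FPKM with LPS + 3-HPA, against 19.9, 19.8, 18.7 and 18.7 FPKM with LPS. Every LPS + 3-HPA library lay above every LPS library, by a modest margin. The log2 fold change was 0.28 (SE 0.035, 95% interval 0.20 to 0.36, limma adjusted p = 0.00019), from 3996 to 5571 reads per library. Against a minimum change of 1.2-fold it no longer passed.

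NLRP3 (ENSG00000162711, chromosome 1 from 247416156 to 247449108), the sensor of potassium loss and membrane damage, had 3.17, 2.83, 2.66 and 2.62 FPKM with LPS + 3-HPA, against 2.31, 2.80, 2.37 and 2.47 FPKM with LPS. The groups overlapped, since the second LPS library lay above 2 of the 4 LPS + 3-HPA libraries. Its log2 fold change of 0.13 (95% interval -0.01 to 0.27) did not pass (limma adjusted p = 0.117), though it did without LPS replicate 2 (0.17, limma adjusted p = 0.0484). NLRC4 (ENSG00000091106, chromosome 2 from 32224453 to 32265854), the sensor adaptor for flagellin and bacterial secretion systems, averaged 0.406 ± 0.111 FPKM with LPS + 3-HPA and 0.400 ± 0.0472 FPKM with LPS (SD, n = 4 each), on 39 to 81 reads per library.

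NLRP1 (ENSG00000091592, chromosome 17 from 5499427 to 5619424), a sensor of viral proteases and ribotoxic stress in human cells, averaged 0.0645 ± 0.0125 FPKM with LPS + 3-HPA and 0.0599 ± 0.0261 FPKM with LPS (SD, n = 4 each), on 20 to 70 reads. Both NLRC4 and NLRP1 lay below the filter, and neither was tested with the other genes. Fitted without the filter, their log2 fold changes were 0.00 for NLRC4 (limma adjusted p = 0.989) and 0.01 for NLRP1 (limma adjusted p = 0.884).

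PYCARD (ENSG00000103490, chromosome 16 from 31201485 to 31203450), the adaptor ASC that links pyrin-domain sensors to caspase-1, had 5.66, 5.63, 5.36 and 4.30 FPKM with LPS + 3-HPA, against 5.75, 7.02, 7.30 and 6.78 FPKM with LPS. The groups did not overlap, but the lowest LPS library stood just above the highest LPS + 3-HPA library. The log2 fold change was -0.31 (SE 0.088, 95% interval -0.51 to -0.11, limma adjusted p = 0.0195), on 266 to 481 reads per library. This call ended without LPS replicate 2 (limma adjusted p = 0.0503), without LPS replicate 3 (0.0525), with no filter on low values (0.0577) and against a minimum change of 1.2-fold. The antisense gene PYCARD-AS1 overlaps it and did not exceed 0.113 FPKM.

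CASP1 fell furthest of the 8 tested genes. It encodes the protease that matures interleukin-1β and lies on chromosome 11 from 105025443 to 105035250 (ENSG00000137752). It had 44.6, 43.3, 41.7 and 42.9 FPKM with LPS + 3-HPA, against 73.6, 73.8, 71.6 and 73.2 FPKM with LPS. Levels with 3-HPA were 59.0% of those with LPS, and the libraries of a group differed by at most 1.07-fold. The log2 fold change was -0.75 (SE 0.022, 95% interval -0.80 to -0.70, limma adjusted p = 2.58e-08), on 5896 to 12153 reads, which ranked it 74 by p among all genes tested.

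CASP4 (ENSG00000196954, chromosome 11 from 104942866 to 104969436), the caspase that binds LPS in the cytosol, did not pass the test. It had 4.80, 5.15, 5.16 and 5.36 FPKM with LPS + 3-HPA, against 5.51, 5.30, 5.69 and 5.22 FPKM with LPS, and the groups overlapped. The log2 fold change of -0.07 (95% interval -0.16 to 0.02) did not pass (limma adjusted p = 0.179). The pair was set side by side within libraries, where scaling between libraries cancels, after its values had been seen, so the ratio restates what was seen and gives no separate support. CASP1 per CASP4 was 8.45 ± 0.598 with LPS + 3-HPA and 13.5 ± 0.668 with LPS (SD, n = 4 each), a log2 difference of -0.68.

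The other genes of the row, CASP5 and CARD16, fell as well. CASP5, for the second LPS-binding human caspase, had 8.64, 9.14, 9.81 and 9.70 FPKM with LPS + 3-HPA, against 13.7, 14.3, 13.5 and 14.8 FPKM with LPS, and fell by 0.55 on the log2 scale (limma adjusted p = 1.05e-05). CARD16 had 16.6, 19.2, 20.1 and 19.5 FPKM with LPS + 3-HPA, against 28.6, 28.8, 28.9 and 29.9 FPKM with LPS, and fell by 0.60 (limma adjusted p = 1.76e-05). For neither was a change relative to CASP1 established: CASP1 per CARD16 differed by -0.13 on the log2 scale (exact permutation p = 0.1714) and CASP1 per CASP5 by -0.17 (exact permutation p = 0.0571). CARD17P, inside the span of CARD16, held at most 3 reads in a library, and CARD18 was not analysed here.

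**Figure D2:**
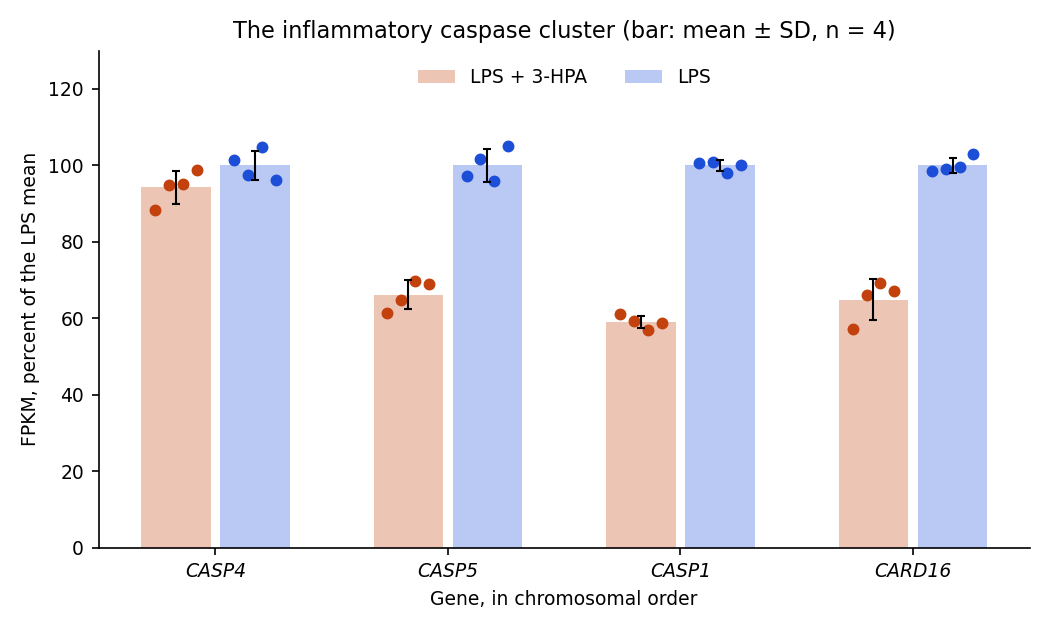
FPKM of 4 neighbouring genes of chromosome 11 as a percent of each gene's LPS mean (vertical axis, from 0), with LPS + 3-HPA in orange and LPS in blue, bars for the mean, whiskers for the SD and 1 point per library. With 3-HPA, CASP5, CASP1 and CARD16 stand at 66.3%, 59.0% and 64.9% of LPS, and CASP4 at 94.3%.

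GSDMD (ENSG00000104518, chromosome 8 from 143553207 to 143563062), the pore-forming substrate of caspase-1 and caspase-4, could not be compared. It had 1.47, 1.01, 5.46 and 7.60 FPKM with LPS + 3-HPA, against 3.36, 3.89, 1.50 and 4.55 FPKM with LPS. The LPS + 3-HPA libraries enclosed the LPS libraries at both ends. Its log2 fold change of -0.02 had a 95% interval of -1.10 to 1.06 (limma adjusted p = 0.973), and its sign turned under scaling by trimmed means (0.02) and quantile normalisation (0.02).

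GSDMD spread more widely than counting error, the random sampling of reads, alone gives. On 208 to 1441 reads per library, the coefficient of variation was 81.9% with LPS + 3-HPA and 39.4% with LPS, where counting error alone gives 3.70% with LPS + 3-HPA and 3.84% with LPS. Of 1259 genes with a similar number of reads (within 25% of its mean), 1 varied as much with LPS + 3-HPA and 9 with LPS, and their median was 6.56% with LPS + 3-HPA and 6.23% with LPS. Among tested genes within 50 kb on chromosome 8, chosen after their values were seen, NAPRT varied by 81.8% and EEF1D by 52.0% in the LPS + 3-HPA libraries, but MROH6 by 21.0% and ZC3H3 by 3.57%. NAPRT had 8.96, 10.0, 2.30 and 1.03 FPKM with LPS + 3-HPA, against 8.86, 6.53, 6.90 and 10.9 FPKM with LPS. It was high where GSDMD was low in the LPS + 3-HPA libraries, but in the LPS libraries both were highest in the same library. In GENCODE 29, 0 windows of 100 bases of GSDMD were found in another gene's transcripts. That search could not find a copy under the same gene name or outside annotated transcripts, and the submitters' reference was not checked. The cause of the spread was not tested.

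NINJ1 (ENSG00000131669, chromosome 9 from 93121489 to 93134288), which encodes the protein that ruptures the plasma membrane of dying cells, was the most abundant machinery gene. It had 179, 185, 188 and 179 FPKM with LPS + 3-HPA, against 158, 162, 162 and 161 FPKM with LPS. The groups were well apart although the change was small, at 114% of the LPS mean. For NINJ1 the log2 fold change was 0.19 (SE 0.020, 95% interval 0.14 to 0.23, limma adjusted p = 6.8e-05), on 15389 to 19412 reads, and it did not pass against a minimum of 1.2-fold.

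P2RX7 (ENSG00000089041, chromosome 12 from 121132819 to 121188032), the ATP-gated channel, had 89.3, 89.0, 90.7 and 89.5 FPKM with LPS + 3-HPA, against 115, 115, 113 and 116 FPKM with LPS. Libraries of a group were within 1.03-fold of each other, so the fall to 78.1% of the LPS mean stood far outside their spread. For P2RX7 the log2 fold change was -0.35 (SE 0.014, 95% interval -0.39 to -0.32, limma adjusted p = 1.38e-07). NINJ1 per P2RX7 was 2.04 ± 0.0418 with LPS + 3-HPA and 1.40 ± 0.0285 with LPS (SD, n = 4 each).

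Since FPKM is per length, the 10 genes can be ordered by their deposited level, but the order rests on the gene length used. PYCARD, with 266 to 481 reads over a recovered length of 1660 bases, stood above CASP4. CASP4 held 1201 to 1458 reads over 6665 bases. Lengths of the transcripts present in these cells were not measured. The macrophage marker CD68 held only 2 to 11 reads per library, and whether a low place in this order reflects little RNA was not tested. With LPS + 3-HPA the order was NINJ1 (183 FPKM), P2RX7 (89.6), CASP1 (43.1), MEFV (23.6), PYCARD (5.23), CASP4 (5.12), GSDMD (3.88), NLRP3 (2.82), NLRC4 (0.406) and NLRP1 (0.0645). With LPS the order was the same. Neighbours in it did not overlap, apart from PYCARD, CASP4, GSDMD and NLRP3 in turn with LPS + 3-HPA, and GSDMD and NLRP3 with LPS. The gap between CASP1 and MEFV, 1.83-fold with LPS + 3-HPA and 3.79-fold with LPS, changed most.

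**Figure D3:**
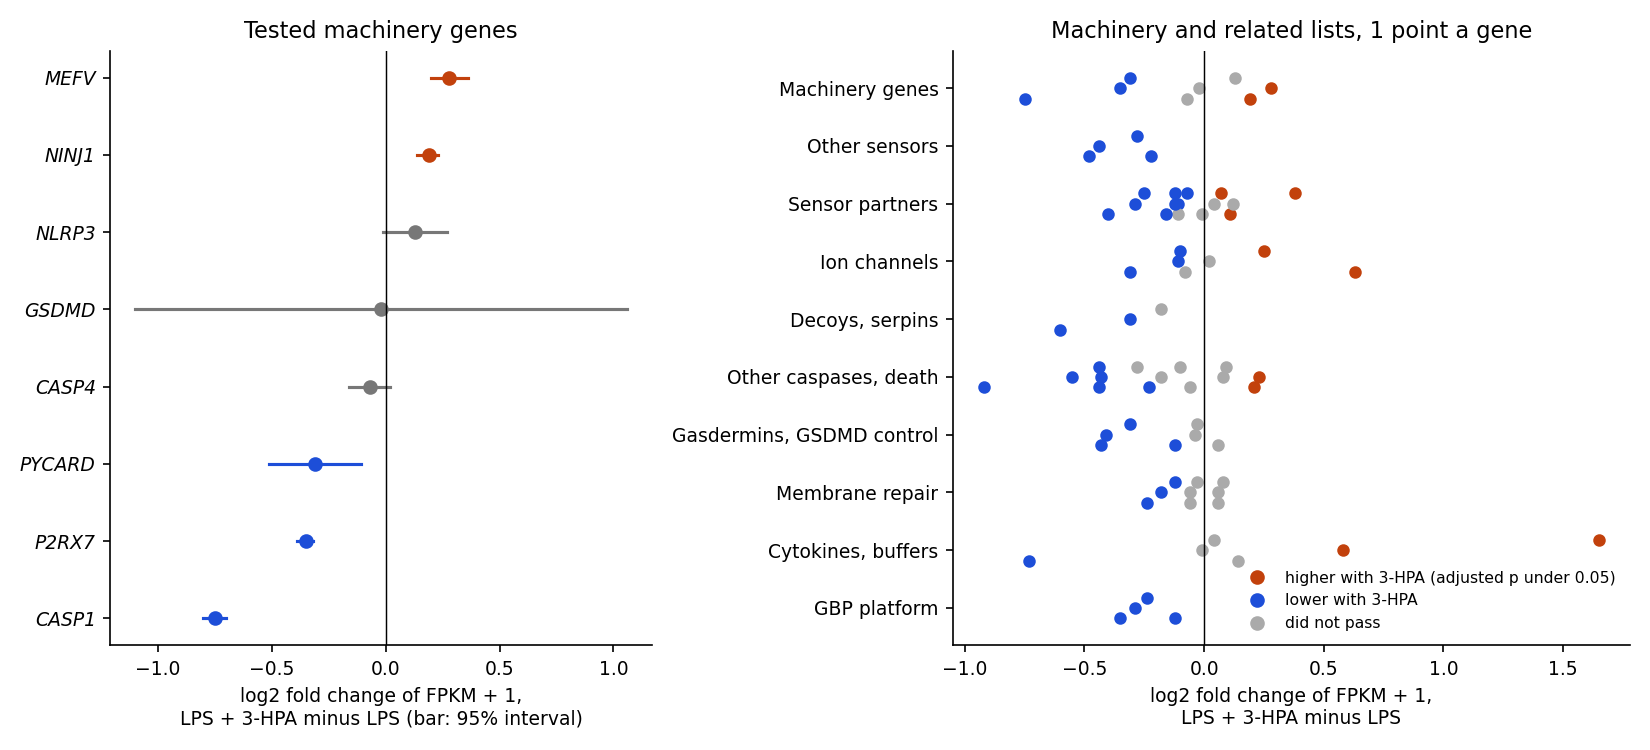
Left, log2 fold change of FPKM + 1 (LPS + 3-HPA minus LPS, horizontal axis) of the 8 tested machinery genes with its 95% interval. Right, the same for each tested gene of the machinery and of 9 related lists, orange where higher, blue where lower and grey where the test was not passed. CASP1 lies furthest left of the machinery genes at -0.75, and GSDMD has the widest interval.

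Related genes of the pathway, in 9 lists with 82 genes in the table and 69 tested, held 9 genes that rose, 35 that fell and 25 short of the threshold, where 15.7% of all genes tested rose and 28.0% fell. The counts of each list below stand against these same shares, and the lists too were chosen with earlier results of these data known. Their median log2 fold change was -0.11, against -0.05 over all genes tested. Of the other sensors, 4 of 4 tested fell. IFI16, a sensor of nuclear DNA, had 143 ± 0.948 FPKM with LPS + 3-HPA and 194 ± 2.73 FPKM with LPS (SD, n = 4 each), and fell by 0.44 on the log2 scale. AIM2, which senses cytosolic DNA, fell by 0.22, CARD8, a sensor restrained by dipeptidyl peptidases, fell by 0.28 and NLRP12 fell by 0.48. NLRP12, at 0.360 FPKM with LPS + 3-HPA and 0.897 FPKM with LPS, passed the filter through the LPS libraries alone, so its presence among the tested genes was tied to that difference. NAIP, which hands flagellin to NLRC4, held 0 to 5 reads in a library.

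Among 15 tested sensor partners, 3 rose and 8 fell, with a median of -0.11, but 5 rose and 4 fell under TMM scaling. TXNIP, reported to bind NLRP3 under oxidative stress, fell by 0.29 (637 ± 16.7 FPKM with LPS + 3-HPA, 779 ± 6.90 FPKM with LPS, limma adjusted p = 3.06e-06). TXN, for thioredoxin, which TXNIP also binds, rose by 0.38 (limma adjusted p = 0.000215). BTK, for a kinase that phosphorylates NLRP3, fell by 0.40 (limma adjusted p = 4.81e-06). NEK7, the kinase that completes the NLRP3 inflammasome, did not pass (log2 fold change -0.01, 95% interval -0.09 to 0.07). Of 7 tested ion channel and transport genes 2 rose, namely TRPM2, an oxidant-gated calcium channel (0.63), and LRRC8A, a volume-regulated anion channel (0.25), and 3 fell, among them CLIC4 (-0.31) and WNK1, a kinase that senses chloride (-0.11), of which 1 alone fell under TMM.

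Among inhibitors, SERPINB1, which restrains inflammatory caspases in human and mouse cells, fell by 0.31 (limma adjusted p = 0.00101) and SERPINB9 did not pass (-0.18, limma adjusted p = 0.0525). SERPINB9 did pass with equal totals (limma adjusted p = 0.0368), without the trend (0.0303), by voom (0.0416) and without LPS replicate 1 (0.0155). With CARD16, the fit on deposited values made 2 of 3 tested decoys and serpins lower and 0 higher. Of 14 other caspases and death genes, 2 rose and 6 fell, with a median of -0.20. CFLAR, an inhibitor of caspase-8 named after its values were seen, rose by 0.21 (limma adjusted p = 8.25e-05). ZBP1, a sensor that triggers necroptosis and other cell death, averaged 0.184 ± 0.0448 FPKM with LPS + 3-HPA and 1.23 ± 0.0565 FPKM with LPS (SD, n = 4 each), 14.9% of LPS, and passed the filter through the LPS libraries alone. CASP8 and CASP10, initiator caspases of death receptors, each fell by 0.44 on the log2 scale.

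Downstream of the caspases, GSDME, for another pore-forming gasdermin, fell by 0.41 (4.50 ± 0.180 FPKM with LPS + 3-HPA, 6.29 ± 0.241 FPKM with LPS, limma adjusted p = 2.62e-05). RRAGC, part of the Rag complex that gasdermin D pore assembly needs in mouse macrophages, fell by 0.43. The Rag gene RRAGA (-0.03, limma adjusted p = 0.641) and LAMTOR1 (0.06, limma adjusted p = 0.442) of the same list did not pass. The palmitoyltransferase genes ZDHHC9 and ZDHHC5 fell by 0.31 and 0.12. In all, 4 of 7 tested genes of this list fell and 0 rose. Of 9 tested genes for membrane repair and rupture, 3 fell and 0 rose, against 1 and 1 under TMM. They were PDCD6IP, for the ESCRT adaptor ALIX (-0.18), CHMP3, an ESCRT-III subunit (-0.12), and NINJ2, the relative of NINJ1 (-0.24), on 34 to 81 reads with overlapping groups. CHMP4B, the main ESCRT-III filament subunit, did not pass (-0.06, limma adjusted p = 0.0727), though it did with equal totals (-0.10, limma adjusted p = 0.00931). The guanylate-binding protein genes GBP1, GBP2, GBP3 and GBP4, whose products take part in LPS sensing by caspase-4, fell by 0.29, 0.12, 0.24 and 0.35. Under TMM scaling the calls of GBP2 (limma adjusted p = 0.0597), CHMP3 (0.0743), WNK1 (0.116) and NINJ2 (0.0684) ended. The call of NINJ2 ended in 11 of the 18 alternatives in which NINJ2 could be fitted, among them no filter (limma adjusted p = 0.125), voom (0.0673), the replicate block (0.0576) and leaving out LPS replicate 1, 2 or 3 or LPS + 3-HPA replicate 3 or 4 (0.0649 to 0.108).

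Of 6 tested genes in the list of substrates and buffers, 2 rose and 1 fell. Besides interleukin-1 genes the list holds HMGB1 (0.04, limma adjusted p = 0.532) and IL18BP (-0.01, limma adjusted p = 0.775), which did not pass. IL1B, for pro-interleukin-1β, rose by 0.58 (4239 ± 57.3 FPKM with LPS + 3-HPA, 2828 ± 43.3 FPKM with LPS, SD, n = 4 each), while IL1RN, for the receptor antagonist, fell by 0.73, IL1R2, for the decoy receptor, rose by 1.65 and IL1A did not pass (0.14, limma adjusted p = 0.118). Without LPS + 3-HPA replicate 4, IL1A passed (0.21, limma adjusted p = 0.00792). IL18, for the other cytokine matured by caspase-1, held 14 to 32 reads in a library and was not tested. IL1B per CASP1 was 93.3 to 102 in the LPS + 3-HPA libraries and 37.6 to 39.9 in the LPS libraries, a log2 difference of 1.34. NLRP3 per CASP1 was 0.0654 ± 0.00415 with LPS + 3-HPA and 0.0340 ± 0.00278 with LPS (SD, n = 4 each). MEFV per CASP1 was 0.548 ± 0.0317 with LPS + 3-HPA and 0.264 ± 0.00713 with LPS (SD, n = 4 each). Together with P2RX7 per CASP1, 8 such ratios were taken, chosen after values were seen, and 6 reached the two-sided exact permutation p of 0.0286, the smallest that 4 against 4 allows (adjusted over the 8 ratios, 0.0381). Since the pairs were picked on these values, these p-values describe the separation only.

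**Figure D4:**
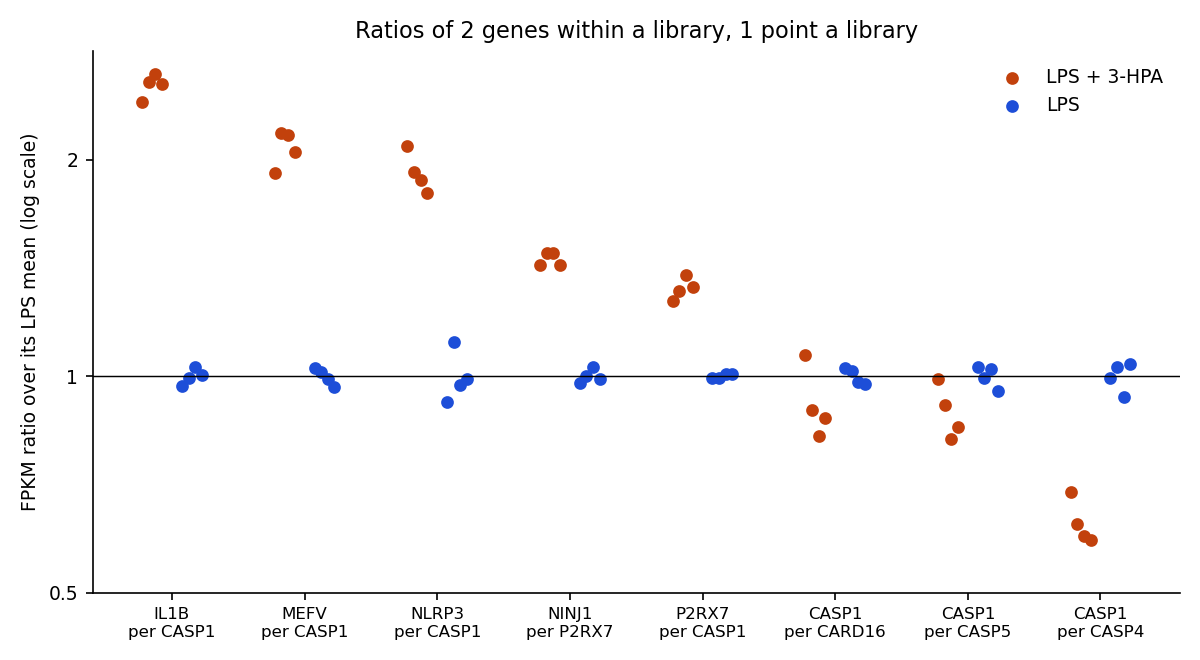
FPKM ratio of a pair of genes within each library, divided by the mean of that ratio over LPS libraries (vertical axis, log scale), with LPS + 3-HPA in orange and LPS in blue. IL1B per CASP1 lies highest, CASP1 per CASP4 lies lowest, and CASP1 per CARD16 overlaps between groups.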

How the data were processed

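RNA-seq was run on 8 libraries of THP-1 cells, 4 given LPS + 3-HPA and 4 given LPS, with groups taken from the sample titles. The submitters' processing notes name fastp 0.22.0, HISAT2 2.1.0, featureCounts and the build GRCh38. The deposited values are FPKM per gene, per the labels. The sources at hand give neither strandedness, read length nor annotation release.

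Totals and gene lengths were searched for that made all FPKM values whole numbers of reads (within 0.0001), which gave a length for 30232 of 30233 genes, with 99.88 to 99.89% of each total on these genes. Lengths equalled the GENCODE 29 exon union for 13211 genes. Read ranges run from the lowest to the highest of the 8 libraries, both groups together. PCR duplicates, if the submitters left them in, are counted as reads.

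The fit used limma 3.58.1 under R 4.3.3, with a mean-variance trend, on log2(FPKM + 1) of genes at 0.5 FPKM or more in at least 4 libraries. Two-sided p-values were adjusted by Benjamini-Hochberg across the 12499 genes and called at 0.05. Reported p-values from limma are so adjusted. Within-library ratios were compared by exact permutation. The same fit was also run on simulated counts with planted changes, in far fewer genes than were called here. That run says little about the fit in data where so many genes were called. Symbols matched 30221 identifiers, and positions are from GENCODE 29.

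The members and lists were chosen with earlier results of these data known. CFLAR, NEK7, NAIP, IL18, CLIC1, CHMP4A, RRAGA, LAMTOR1, HMGB1, IL18BP and the neighbours of GSDMD were named after their values were seen. Named by rule are the 10 machinery genes, from each list up to 4 tested genes of smallest p, and near copies of a machinery gene. Some genes that this rule names are not reported here. Alternatives changed the scaling (equal totals, trimmed means or TMM, quantiles), the filter (off, or 1 FPKM), the pseudocount (0.1 or 0.5) and the model (no trend, voom on recovered reads, a replicate block, a 1.2-fold minimum by treat), or omitted 1 library. Tables and plots were made in Python 3.11.15 (pandas 2.3.3, numpy 2.4.6, matplotlib 3.10.9).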

Additional observations from a re-analysis of the deposited data

How the results depend on the processing

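CASP1 and P2RX7 kept their direction and their call under each of the 19 alternatives, with log2 fold changes from -0.78 to -0.69 and from -0.39 to -0.30. MEFV (0.24 to 0.33) and NINJ1 (0.15 to 0.24) lost theirs only against the 1.2-fold minimum, where 0 machinery genes were higher. PYCARD ranged from -0.37 to -0.23. GSDMD never passed, and its sign turned under TMM scaling (0.02), quantile normalisation (0.02) and when single libraries were left out (-0.38 to 0.31). Leaving out single libraries gave 2 to 3 machinery genes higher and 2 to 3 lower.

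Against the 1.2-fold minimum, 535 genes were higher and 551 lower over all genes, and lower were 2 other sensors, 1 sensor partner, 0 ion channel genes, 1 decoy or serpin, 2 gasdermin-list genes, 0 membrane-repair genes and 1 GBP gene, while higher were 0 sensor partners, 1 ion channel gene and 0 other caspases. TMM gave 5 sensor partners higher and 4 lower, 1 ion channel gene lower, and 1 membrane-repair gene higher and 1 lower. Quantile normalisation gave 5 sensor partners lower, 1 ion channel gene lower and 1 membrane-repair gene higher. Equal totals gave 1 sensor partner higher and 6 membrane-repair genes lower. Of all calls 36.0% were higher as deposited, 28.5% with equal totals, 49.7% with TMM and 46.4% after quantile normalisation. The causes were not tested.

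Same-numbered libraries deviated little together (correlations -0.0231, -0.00348, 0.0357 and 0.0894). Only LPS + 3-HPA replicate 4 was closest to the LPS library of its number. Low correlations cannot show that the numbers do not pair libraries, so a replicate block was run as an alternative. With the replicate block, 1854 genes were higher and 3220 lower, and 2 machinery genes were higher and 3 lower. Over the 8 tested machinery genes and the 35 genes named by rule, 755 values kept their direction and call, 37 lost the call, 7 gained it and 7 turned sign.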

Other observations

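Several genes that most human cells or macrophages express were listed at very few reads in every library. CLIC1, a chloride channel protein implicated in NLRP3 activation, held 9 to 26 reads, the ESCRT-III subunit gene CHMP4A 4 to 16 reads and CD68 2 to 11 reads. ELANE, for neutrophil elastase, had 3.34 FPKM in LPS replicate 3 and at most 0.362 FPKM in the other libraries. Among the 20 sets of 4 libraries formed by the 10 machinery genes and 2 groups, 0 held a library that stood apart by Dixon's criterion.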
